A study of Mus musculus with 24 samples.

Results

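The T cell marker genes examined here are Cd3d, Cd3e, Cd3g, Cd2, Cd4, Cd8a, Cd8b1, Lck and Cd5, 9 of the 55421 genes listed for each library. They were chosen by name, as genes that mark T lymphocytes, with earlier results of these data known. All 9 passed the filter on low counts and were among the 25033 genes tested. RNA had been sequenced from uninjured carotid arteries of ovariectomized wild-type C57BL/6 female mice aged 9 weeks, with 6 libraries in each of 4 groups. The groups are vehicle (placebo pellet, labelled OVX), 17β-estradiol (E2), estetrol (E4) and tamoxifen (TAM), a selective estrogen receptor modulator. All mice had been deprived of their ovaries, vehicle-treated mice included, and the design text gives 3 weeks of treatment where the methods give a shorter time. Estetrol is a natural estrogen that carries more hydroxyl groups than estradiol, and its pellets held a larger mass of hormone, which the study had set to match the estrogenic effect of E2 on the uterus. The 6 E4 libraries bear E4 in their titles, while their treatment field reads placebo, and the titles were followed. Each library carries its own mouse number, and p-values measure the spread between these libraries.

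T cells recognize antigen through a receptor that cannot signal by itself and depends on the CD3 chains. CD4 and CD8 are co-receptors that bind MHC class II and class I molecules, respectively, and bring the kinase Lck to the receptor. Immature thymocytes carry both co-receptors while they rearrange their receptor genes, whereas mature T cells keep one of them. A healthy artery holds few T cells, mostly in the adventitia and the perivascular fat, and small lymph nodes lie close to the carotid. In whole tissue, fewer cells of a type and less RNA per cell cannot be told apart.

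Library totals were between 24647246 counts (E4 C38) and 64221401 counts (OVX C4). Summed CPM of 5 smooth muscle genes was 2215 or higher in every library, and that of 5 endothelial genes was 439 or higher. The T cell marker genes came near the lower limit of what such depths resolve in some libraries only. Their counts outside library E2 C9 ranged from 3 (Cd3d in E4 C38) to 411 (Cd8a in TAM C13). Sympathetic ganglion genes were low in OVX C5 and TAM C35, and values without this pair are given where they changed a call. Thyroid and parathyroid genes summed to 2994 CPM in E4 C38, 111.9 in E4 C16, 17.8 in OVX C2 and 11.3 in TAM C33, and to 0.480 to 1.52 CPM in the other libraries.

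The 3 CD3 genes lie next to each other on chromosome 9 (GRCm38), with Cd3g (ENSMUSG00000002033, chr9:44969572-44980431, minus strand) and Cd3d (ENSMUSG00000032094, chr9:44981786-44987339, plus strand) pointing away from each other across 1354 bases, and Cd3e (ENSMUSG00000032093, chr9:44998740-45009627, minus strand) farther along. Promoter windows of 300 bases, 250 before and 50 after the start, were taken from RefSeq on GRCm38.p6, in which 6 of the 9 genes had 7 windows. The CD3 windows are shown because these genes are neighbours. Each followed the mean of the other marker genes across libraries, but less closely than Cd4, Cd8a, Cd8b1 and Lck did. Both windows of Lck are shown because the upstream (distal) promoter is known for its use in mature T cells and the downstream (proximal) one for its use in thymocytes, while the counts cover the gene as a whole. Capitals mark matches, on either strand, to the motifs of Ets, Runx and E protein factors, the TATA box and the estrogen response element, whose letters follow the sequences.
Cd3g, chr9:44980382-44980681, minus strand: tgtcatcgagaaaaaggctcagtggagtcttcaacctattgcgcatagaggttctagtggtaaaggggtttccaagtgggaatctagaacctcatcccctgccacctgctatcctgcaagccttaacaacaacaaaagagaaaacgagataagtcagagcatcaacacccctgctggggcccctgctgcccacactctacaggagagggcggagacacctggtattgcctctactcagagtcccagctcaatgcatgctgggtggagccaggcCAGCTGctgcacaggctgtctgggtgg
Cd3d, chr9:44981536-44981835, plus strand: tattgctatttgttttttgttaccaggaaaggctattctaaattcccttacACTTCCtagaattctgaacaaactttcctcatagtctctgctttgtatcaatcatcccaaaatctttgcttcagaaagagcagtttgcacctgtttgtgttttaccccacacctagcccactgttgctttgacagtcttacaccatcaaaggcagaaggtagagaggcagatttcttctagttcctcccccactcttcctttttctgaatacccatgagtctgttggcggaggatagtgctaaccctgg
Cd3e, chr9:45009562-45009861, minus strand: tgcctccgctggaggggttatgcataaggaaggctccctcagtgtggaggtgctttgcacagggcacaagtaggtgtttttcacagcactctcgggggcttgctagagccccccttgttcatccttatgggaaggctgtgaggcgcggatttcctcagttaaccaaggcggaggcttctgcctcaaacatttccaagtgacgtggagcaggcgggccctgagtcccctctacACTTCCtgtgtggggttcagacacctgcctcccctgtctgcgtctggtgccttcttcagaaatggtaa
Lck distal, chr4:129573592-129573891, minus strand: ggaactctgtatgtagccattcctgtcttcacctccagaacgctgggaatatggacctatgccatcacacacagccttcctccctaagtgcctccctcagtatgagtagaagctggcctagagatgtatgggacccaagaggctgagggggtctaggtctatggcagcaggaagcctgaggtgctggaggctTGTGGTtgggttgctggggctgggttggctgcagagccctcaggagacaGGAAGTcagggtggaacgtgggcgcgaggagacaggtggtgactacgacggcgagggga
Lck proximal, chr4:129558323-129558622, minus strand: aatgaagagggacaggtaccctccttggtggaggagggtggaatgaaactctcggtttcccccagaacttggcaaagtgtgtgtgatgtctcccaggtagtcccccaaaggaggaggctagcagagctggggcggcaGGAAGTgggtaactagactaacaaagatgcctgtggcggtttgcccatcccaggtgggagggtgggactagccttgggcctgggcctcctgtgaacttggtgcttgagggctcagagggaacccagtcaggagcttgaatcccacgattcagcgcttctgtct

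The Ets motif (GGAAGT) was present in 5 of the 7 windows, against 23.8% of 32851 promoter windows of the same length. The E protein motif (CAGCTG) was found in 2, those of Cd3g and Cd8a (16.3% of all windows), and the Runx motif (TGTGGT) in the distal window of Lck alone (16.8%). The TATA box (TATAAA) was found in 0 (13.6% of all windows). The estrogen response element, searched as GGTCA followed after any 3 bases by its reverse complement, was found in 0, and 0.07% of all windows hold it. These matches describe the letters of the windows only.

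Cd2 (ENSMUSG00000027863, chr3:101275899-101287939), an adhesion receptor found on mouse T, B and NK cells, had the highest level per length in every group. Its median was 1.28 CPM (counts scaled to the size of the library) per kb of exon in vehicle-treated mice, 1.75 in E2-treated, 0.585 in E4-treated and 0.799 in TAM-treated mice. Lck (ENSMUSG00000000409, chr4:129548344-129573641) came next in each group, with 0.967 CPM per kb in vehicle-treated mice. At the other end were Cd3e, at 0.273 CPM per kb, and Cd5 (ENSMUSG00000024669, chr19:10717116-10739002), a receptor that dampens T cell receptor signals, at 0.206. Between these, Cd8b1, Cd8a, Cd3d, Cd4 and Cd3g had medians of 0.407 to 0.772 CPM per kb in vehicle-treated mice, and for every pair of neighbours in this order the ranges over the 6 libraries overlapped. The exons of Cd3e overlap 135 bases of a gene model on the other strand, which had 200 counts over all libraries. Those of Lck hold a microRNA of 25 overlapping bases, and the other 7 genes overlap no annotated exon of another gene.

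**Figure D1:**
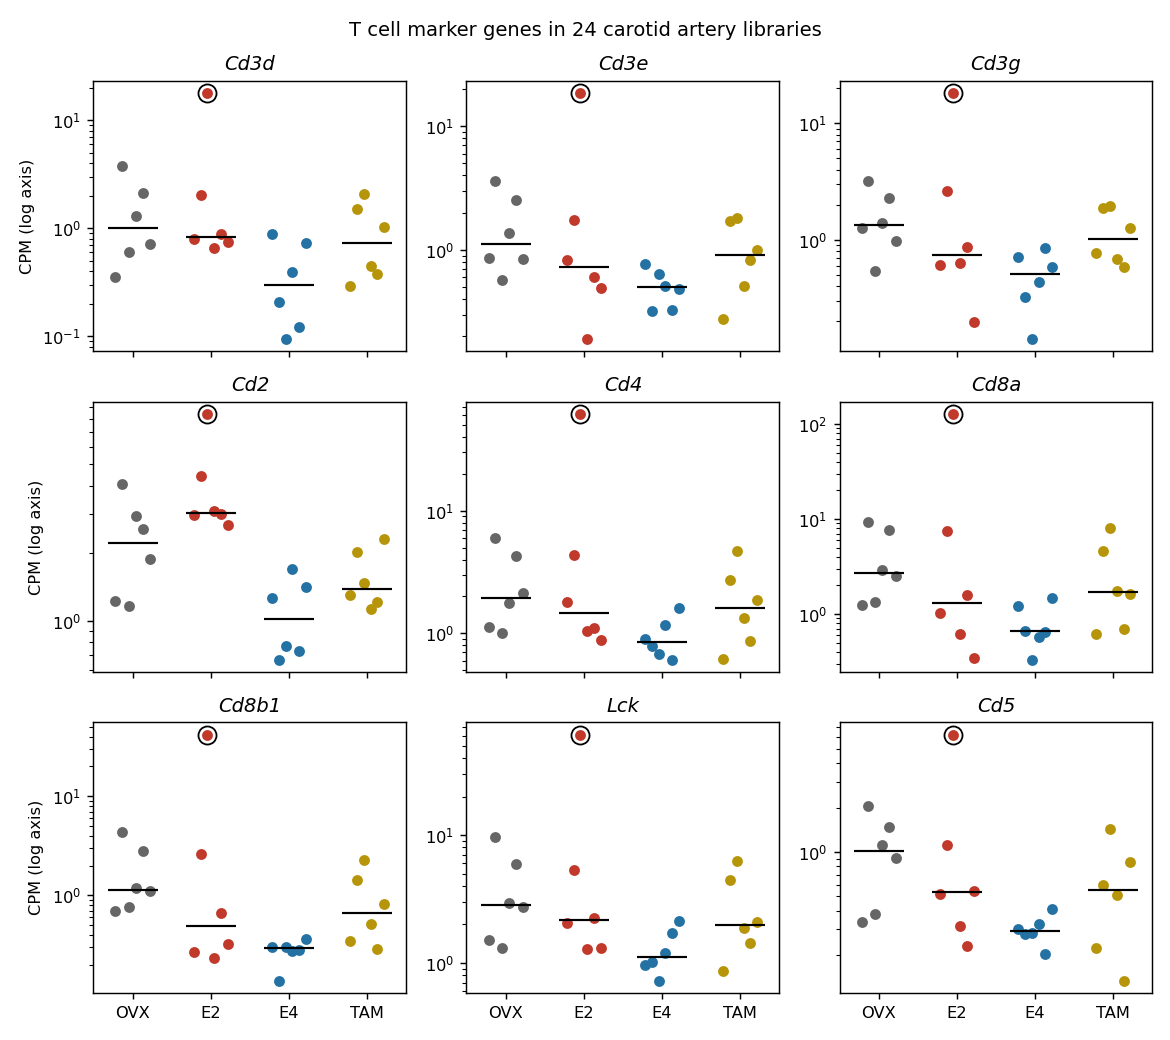
Expression of the 9 T cell marker genes, in CPM on a log axis, by group (OVX, vehicle; E2; E4; TAM). Each point is a library, the bar is the median of 6 libraries and the black circle marks E2 C9, which is the highest library for each of the 9 genes.

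One library, E2 C9, stood apart from the other 23. Cd8a (ENSMUSG00000053977, chr6:71373427-71379173), the α chain of CD8, was at 128 CPM in E2 C9 and at 0.328 to 9.25 CPM elsewhere. Cd8b1 (ENSMUSG00000053044, chr6:71322788-71337494), the β chain, was at 41.8 CPM there, 9.56 times the highest other library. Cd4 (ENSMUSG00000023274, chr6:124864692-124888221) was at 61.3 CPM, 10.2 times the highest other library. Cd2 was the least raised of the 9, at 1.89 times the highest other library. All 9 genes summed to 360.6 CPM in E2 C9 and to 3.96 to 46.0 CPM in the rest.

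Genes of immature thymocytes and of the thymic epithelium moved with this library. All 5 thymocyte genes examined were highest in E2 C9. Rag1, which cuts DNA to rearrange antigen receptor genes, was at 205 CPM there and at 9.09 CPM or lower elsewhere. All 6 thymic epithelial genes were also highest there. Foxn1, the master transcription factor of the thymic epithelium, had 165 counts in E2 C9 and 0 to 2 in the other libraries, and Prss16, a thymic serine protease, had 3013 counts against 15 or fewer. None of the 10 B cell genes, 6 lymph node stromal genes, 8 macrophage genes or 5 smooth muscle genes was highest in E2 C9. Over all tested genes E2 C9 was the highest library for 7.33%, and OVX C3 for 11.2%. Results that rest on E2 C9 are therefore given with and without it where both fits were made.

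As compared with vehicle-treated mice, E4-treated mice had lower values of all 9 T cell marker genes, with log2 fold changes of -2.69 to -1.06 and a median of -1.69. Over all genes tested the median was -0.01. How many of the 9 passed the thresholds depended on a library that belongs to neither group. The thresholds were those of the study: an absolute log2 fold change over 1, together with an adjusted p-value under 0.05. With all 24 libraries in the fit, 1 of the 9 genes (Cd2) was called lower, where 1.69% of all genes tested were. Without E2 C9, 9 of 9 were called lower, where 1.84% of all genes were, and the fold changes of the 9 genes kept the same range. Their standard errors, which take a spread common to the 4 groups, were between 0.34 and 1.16 with E2 C9 and between 0.30 and 0.76 without it.

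The CD3 genes encode the invariant chains that carry the receptor to the surface and pass on its signal. Cd3d had a lowest, median and highest value of 0.356, 1.01 and 3.76 CPM in vehicle-treated mice and of 0.0938, 0.300 and 0.879 CPM in E4-treated mice. Its log2 fold change was -1.83 ± 0.88 (SE; edgeR quasi-likelihood test, adjusted p = 0.135; 0.0374 without E2 C9). The groups overlapped, since E4 C16, E4 C36 and E4 C39 lay above OVX C2. Cd3e was at 0.573, 1.11 and 3.63 CPM in vehicle-treated mice and at 0.323, 0.498 and 0.769 CPM in E4-treated mice. Its log2 fold change was -1.66 ± 0.85 (edgeR, adjusted p = 0.163; 0.0270 without E2 C9), and E4 C16 and E4 C20 lay above the lowest vehicle library. Cd3g, the γ chain, was at 0.543, 1.33 and 3.22 CPM and at 0.141, 0.512 and 0.851 CPM, respectively, with a log2 fold change of -1.69 ± 0.82 (edgeR, adjusted p = 0.139; 0.0264 without E2 C9). Here E4 C16, E4 C38 and E4 C39 exceeded OVX C4. In each of the 3 genes OVX C3 and OVX C24 were the highest vehicle libraries.

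Cd2 was the gene called with all 24 libraries. Its lowest, median and highest values were 1.16, 2.23 and 4.09 CPM in vehicle-treated mice and 0.668, 1.02 and 1.71 CPM in E4-treated mice. E4 C16, E4 C36 and E4 C39 overlapped with OVX C2 or OVX C4. The log2 fold change of -1.06 ± 0.34 lay close to the threshold (edgeR, adjusted p = 0.0298; 0.0160 without E2 C9). It was -0.83 without OVX C3 (adjusted p = 0.101) and -0.96 without OVX C5 and TAM C35 (adjusted p = 0.0491, the fold change falling short; 1.35% of all genes were called lower in that fit), and was called in neither case. It was also lost without OVX C5, E4 C19, E4 C20 or E4 C38, each left out alone, with values of -0.98 to -0.95.

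Among the co-receptor genes, those of CD8 had the larger fold changes. Cd8b1 was at 0.694, 1.15 and 4.37 CPM in vehicle-treated mice and at 0.138, 0.293 and 0.365 CPM in E4-treated mice. It was the only one of the 9 genes whose libraries did not overlap between these groups, as compared with 4.07% of all genes tested that did not overlap in this direction. Its E4 values rest on 6 to 15 counts per library, and its log2 fold change was -2.69 ± 1.14 (edgeR, adjusted p = 0.0901; 0.00783 without E2 C9). Cd8a was at 1.26, 2.69 and 9.25 CPM in vehicle-treated mice and at 0.328, 0.658 and 1.49 CPM in E4-treated mice, with a log2 fold change of -2.32 ± 1.16 (edgeR, adjusted p = 0.151; 0.0319 without E2 C9). Its groups overlapped through E4 C39 alone. Cd4 was at 1.01, 1.95 and 6.03 CPM with vehicle and at 0.608, 0.845 and 1.61 CPM with E4. Its log2 fold change was -1.48 ± 0.91 (edgeR, adjusted p = 0.241; 0.0453 without E2 C9), and 2 E4 libraries (C36 and C39) lay inside the vehicle range. Cd4 is also carried by some dendritic cells.

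Lck was at 1.30, 2.83 and 9.66 CPM in vehicle-treated mice and at 0.727, 1.11 and 2.14 CPM in E4-treated mice. Its log2 fold change was -1.64 ± 0.85 (edgeR, adjusted p = 0.167; 0.0308 without E2 C9). E4 C38 and E4 C39 lay above the lowest vehicle libraries. Cd5 was at 0.338, 1.02 and 2.04 CPM with vehicle and at 0.203, 0.292 and 0.414 CPM with E4, with a log2 fold change of -1.76 ± 0.73 (edgeR, adjusted p = 0.0853; 0.0198 without E2 C9). E4 C39 was the only E4 library above a vehicle library for Cd5. It exceeded OVX C2 and OVX C4.

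**Figure D2:**
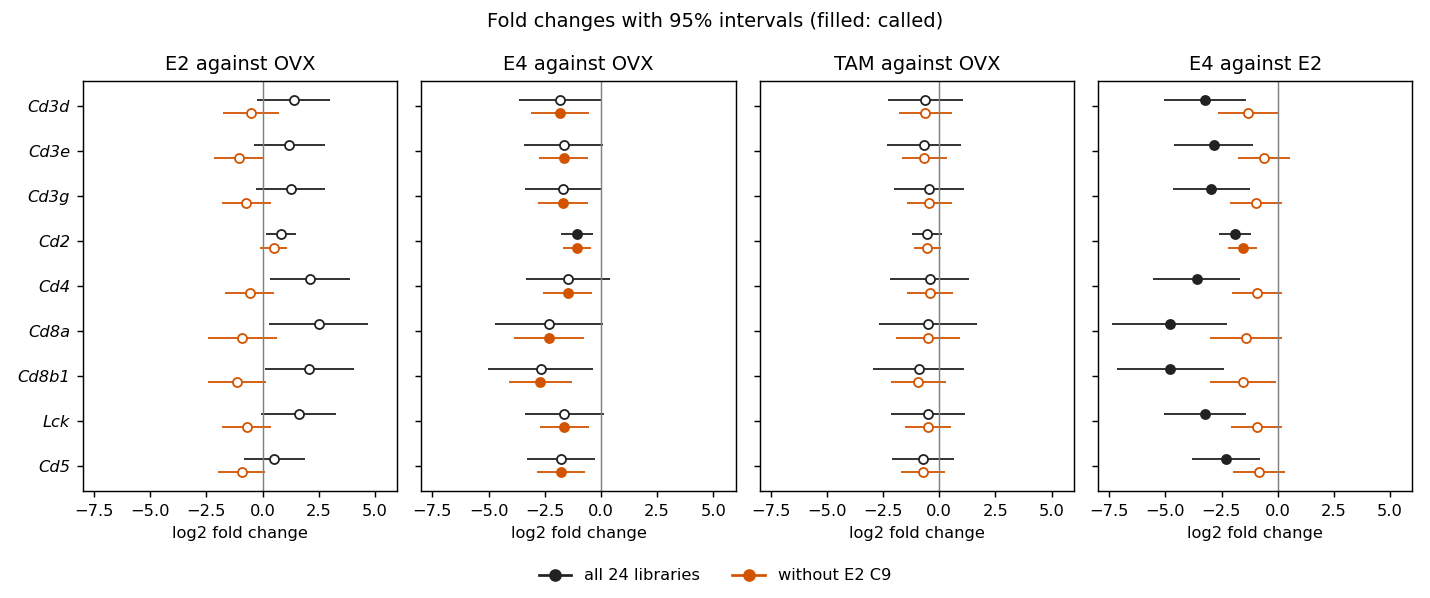
Log2 fold changes of the 9 T cell marker genes with 95% intervals in 4 comparisons, from the edgeR fit of all 24 libraries (black) and without E2 C9 (orange). Filled points passed both thresholds, which were 1 and 9 genes for E4 against OVX and 9 and 1 genes for E4 against E2.

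The comparison of E4 with E2 changed in the opposite way when E2 C9 was left out. With all libraries, 9 of the 9 genes were called lower in E4-treated than in E2-treated mice, where 2.25% of all genes tested were. Log2 fold changes were between -4.81 (Cd8a) and -1.89 (Cd2), with a median of -3.22. Without E2 C9, 1 of 9 (Cd2) was called, where 1.48% of all genes were, and the median was -0.98. The 5 other E2 libraries had Cd8a at 0.345, 1.02 and 7.40 CPM (lowest, median and highest), a range that holds 5 of the 6 E4 libraries. Their Cd4 was at 0.887, 1.11 and 4.33 CPM and their Lck at 1.29, 2.05 and 5.34 CPM, in both cases with E2 C8 the highest. Fold changes against E2 and against vehicle share the E4 libraries.

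Cd2 held in both fits. It was at 2.69, 3.00 and 4.44 CPM in the 5 E2 libraries other than C9 and at 8.38 CPM in C9. Each of these exceeded the highest E4 library (1.71 CPM), and Cd2 was the only one of the 9 genes with such a gap, which 4.13% of all genes tested had in this direction. The log2 fold change of E4 against E2 was -1.89 ± 0.34 (edgeR, adjusted p = 0.00117) and -1.55 ± 0.31 without E2 C9 (edgeR, adjusted p = 0.00373). In the second number series alone (mice C24 to C39) it was -1.14 with an adjusted p of 0.445, in a fit that called 0 of 25498 genes tested. Macrophage genes moved the same way: 6 of 8 were called lower in E4-treated than in E2-treated mice, and their summed CPM was 968 to 1471 with E2 and 413 to 775 with E4. Their part in the Cd2 result was not tested.

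None of the 9 genes passed the thresholds in E2-treated mice as compared with vehicle. With all libraries, 0 of 9 were called by edgeR, 4 had an unadjusted p-value under 0.05 and the median log2 fold change was 1.39. DESeq2, which gave 3 of the 9 genes no adjusted p-value in any comparison, also called 0. The share of all genes called higher was 0.923%. Without E2 C9, 0 of 9 were called (0.357% of all genes were called lower), 0 had an unadjusted p-value under 0.05, and 8 of 9 fold changes turned negative, with a median of -0.71. The 95% intervals then reached from -2.44 to 0.62 for Cd8a, from -1.65 to 0.53 for Cd4 and from -2.16 to 0.02 for Cd3e. Cd2 kept a positive value of 0.49 (interval -0.12 to 1.11).

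In TAM-treated mice 0 of 9 genes were called against vehicle, where 0.188% of all genes were called lower. All 9 fold changes were negative, between -0.93 (Cd8b1) and -0.42 (Cd4), and 0 had an unadjusted p-value under 0.05 in edgeR, while DESeq2 called 0. The lowest, median and highest Cd8a values were 0.620, 1.69 and 8.08 CPM, with TAM C13 and TAM C12 the highest, and the interval of its log2 fold change was -2.67 to 1.66. Against E2, 1 of 9 (Cd2, log2 fold change -1.38, edgeR adjusted p = 0.0132) was called lower, where 1.39% of all genes were. Cd2 was at 1.13 to 2.32 CPM in the TAM libraries, below every E2 library, a gap that 3.13% of all genes had in this direction. Without E2 C9 its log2 fold change was -1.04 (edgeR, adjusted p = 0.0530), and 0 of 9 were called, where 1.02% of all genes were. The median log2 fold change of the 9 genes against E2 was -2.01 with E2 C9, with all 9 negative, and 0.21 without it, with 7 positive. Against E4, 0 of 9 were called in edgeR, where 0.0759% of all genes were called higher, and the 9 fold changes were 0.52 to 1.82. Of these, 0 had an unadjusted p-value under 0.05, and 4 had one without E2 C9, while DESeq2 called 0.

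Other genes of the T cell receptor pathway were examined in lists. Of 7 constant genes of the T cell receptor chains, 0 were called in E4-treated mice against vehicle, and 3 (Trac, Trbc1 and Trbc2) were called lower without E2 C9. Of all genes tested, 1.69% and 1.84% were called lower in these fits, respectively. Trbc2, a constant region of the β chain, was at 1.28, 2.53 and 7.69 CPM with vehicle and at 0.284, 0.646 and 1.36 CPM with E4. Its log2 fold change was -2.37 (edgeR, adjusted p = 0.0864; 0.0107 without E2 C9). Of 18 signalling genes, 1 (Cd28, a costimulatory receptor) was called lower, and 8 were without E2 C9, among them Cd28, Grap2, Lat, Skap1, Themis, Txk and Zap70. Cd28 was at 2.08, 3.59 and 4.75 CPM with vehicle and at 0.714, 0.991 and 1.48 CPM with E4, and its log2 fold change was -1.76. Its groups did not overlap, as was the case for 4.07% of all genes tested in this direction. The median over the 18 signalling genes was -1.31, and over the 7 constant genes -1.37.

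Genes of T cell identity and homing did not move as one. Of 10, 2 were called lower with E4, with or without E2 C9 (1.69% and 1.84% of all genes were). Ccr7, a chemokine receptor that guides naive lymphocytes into lymph nodes, was one of them, with a log2 fold change of -1.53. Gata3 was called higher, at 1.22, where 0.823% of all genes were. It had 1.69, 8.55 and 11.8 CPM under vehicle and 11.6, 18.5 and 26.2 CPM under E4. Gata3 is also a transcription factor of sympathetic neurons, and it was lowest in OVX C5 and TAM C35, the libraries with the lowest ganglion genes. Of 16 effector and regulatory genes, 12 could be tested and 1 (Ctla4, an inhibitory receptor of activated and regulatory T cells) was called lower, at -2.68, on at most 7 counts per E4 library. In E2-treated and TAM-treated mice 0 genes of these 4 lists were called against vehicle, with or without E2 C9.

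Genes of immature lymphocytes were highest in the same libraries as the T cell marker genes. Rag1 and Dntt, which adds bases to receptor gene junctions in immature lymphocytes, summed to 0.206 to 12.4 CPM in vehicle libraries and to 0.0487 to 0.714 CPM in E4 libraries. The 6 libraries with the highest summed T cell marker genes (E2 C9, OVX C3, OVX C24, E2 C8, TAM C13 and TAM C12) were also the 6 with the highest Rag1 plus Dntt, whereas they shared 2 of 6 with those highest in the B cell list. With E4 against vehicle, Rag1 and Dntt had log2 fold changes of -4.35 and -4.28 (edgeR, adjusted p = 0.107 and 0.0854; 0.0355 and 0.0133 without E2 C9). Of the thymocyte list, 0 of 3 tested genes were called with all libraries and 2 were without E2 C9. The list summed to 0.638 to 14.3 CPM with vehicle, 0.592 to 12.1 CPM in E2 libraries other than C9, 0.446 to 1.02 CPM with E4 and 0.515 to 14.2 CPM with TAM. Foxn1, Psmb11 and Prss16, genes of the thymic epithelium, together had at most 20 counts in any library other than E2 C9.

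**Figure D3:**
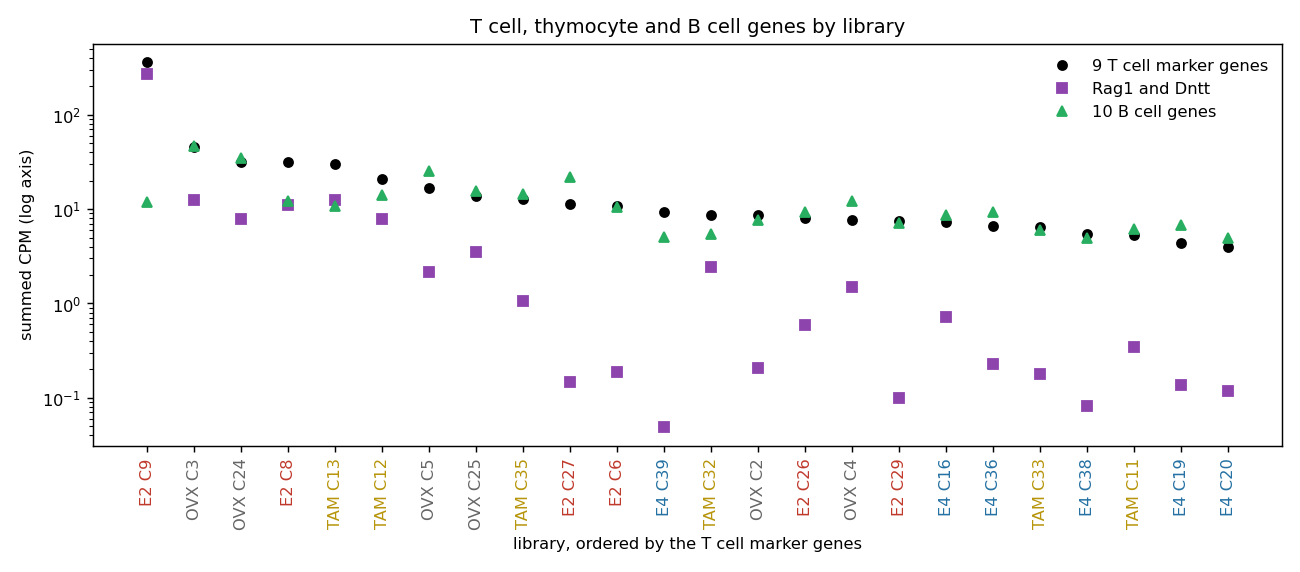
Summed CPM (log axis) of the 9 T cell marker genes, of Rag1 and Dntt and of 10 B cell genes in each of 24 libraries, ordered by the T cell marker genes. Label colours give the group (grey, OVX; red, E2; blue, E4; yellow, TAM). The 6 libraries at the left are also the 6 highest in Rag1 and Dntt, and E2 C9 is not raised in the B cell genes.

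B cell genes were lower with E4 and were not raised in E2 C9. Of 10, 9 were called lower against vehicle, with or without E2 C9 (1.69% and 1.84% of all genes were), and the list median was -1.72. Cd79a and Cd79b, the signalling chains of the B cell receptor, had log2 fold changes of -1.34 and -1.98 (edgeR, adjusted p = 0.0132 and 0.00290), and Cd22, an inhibitory receptor, had -1.87. The 10 genes summed to 7.60 to 46.2 CPM with vehicle, 7.10 to 22.2 CPM with E2, 4.90 to 9.42 CPM with E4 and 5.49 to 14.6 CPM with TAM. With the mean of these 10 genes as a covariate, 0 of the 9 T cell genes were called between E4 and vehicle, and their median log2 fold change was 0.20. In that fit 0.0799% of all genes were called lower, so that the count of 0 is not particular to the 9 genes. The mean of Rag1 and Dntt was chosen as a covariate after the data were seen. With it, 0 were called (0.707% of all genes were called lower) and the median was -0.04. Both fits held E2 C9, whose Rag1 and Dntt summed to 270 CPM, against 12.4 CPM or lower in the other libraries. Neither fit was repeated without E2 C9. Both covariates were themselves lower with E4, so that the T cell genes and these genes cannot be told apart here.

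Few genes of the other lists were called. With E4 against vehicle, 0 genes were called of 3 tested lymph node stromal genes (Ccl21a the most abundant), 5 NK cell genes (Gzma), 6 dendritic cell genes (Zbtb46), 8 macrophage genes, 2 thymic epithelial genes, 5 smooth muscle genes (Acta2), 4 fibroblast genes (Dcn), 7 sympathetic ganglion genes (Dbh) and 2 tested thyroid and parathyroid genes. Pth, the most abundant gene of the last list, did not pass the filter. The ganglion list had a median log2 fold change of 0.95 and summed to 14.7 to 2321 CPM with vehicle and to 1975 to 3333 CPM with E4. The fibroblast list had a median of -0.46, with 2649 to 3680 CPM and 1916 to 3004 CPM, respectively. Vwf, the endothelial von Willebrand factor, was called higher with E4 (1.27) and E2 (1.22 on the log2 scale). Lep, the adipocyte hormone leptin, was called lower with E4 (-1.33) and TAM (-1.49). With E2, C1qb, a complement gene of macrophages, was called higher, and so was Tbata, a thymic epithelial gene, at 4.10, through E2 C9 at 28.9 CPM with 0.0835 to 0.402 CPM in the other E2 libraries. With TAM, 2 B cell genes were called lower (Cd79b and Ms4a1), of which Ms4a1 was called without E2 C9.

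Ratios within a library do not depend on its total. Cd8a to Cd4, compared per kb of exon, was 1.24 to 1.95 in vehicle libraries (median 1.58) and 0.535 to 1.48 in E4 libraries (median 0.985). It was 0.431 to 1.90 in E2 libraries other than C9 (median 0.643), 2.31 in E2 C9 and 0.881 to 1.91 with TAM. Vehicle and E4 values overlapped, and the E4 ratios rest on 14 to 61 counts of Cd8a. Cd2 to Cd3e was 2.40 to 5.21 with vehicle and 5.95 or higher in E2 libraries other than C9, so that these did not overlap, whereas E2 C9 had 1.07, the lowest ratio of the 24. The highest value came from E2 C26, in which Cd3e had 9 counts. E4 libraries had 2.86 to 7.88 and TAM libraries 1.91 to 11.1. Every other ratio examined overlapped between vehicle libraries and E2 libraries other than C9. Among them was Cd3d to Cd3e, at 0.93 to 2.37 and at 2.14 to 7.74, respectively. These ratios were not tested.

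**Figure D4:**
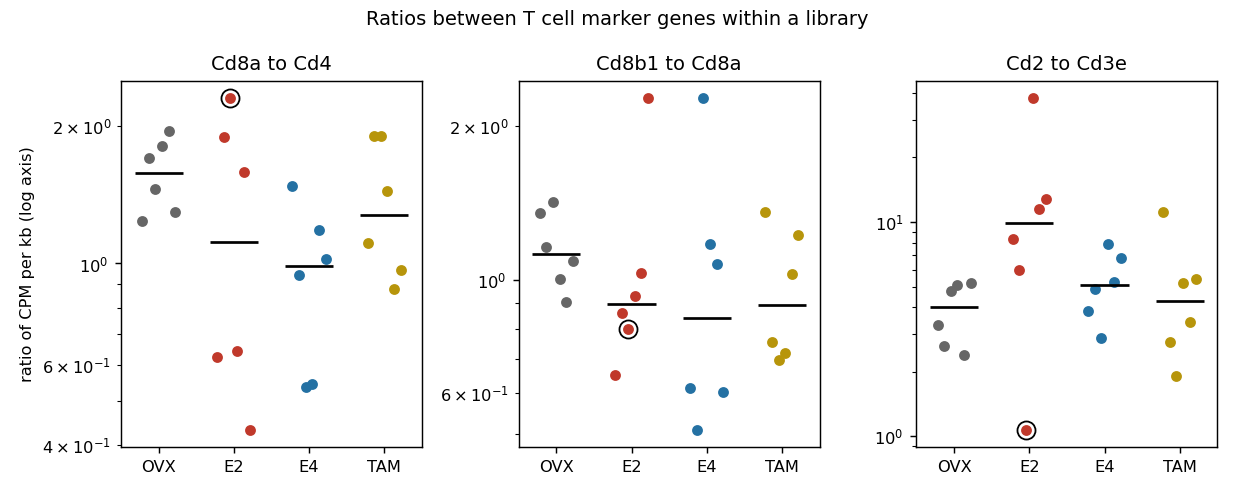
Ratios of CPM per kb between T cell marker genes within each library (log axes), with the group median as a bar and E2 C9 circled. Cd2 to Cd3e is 5.95 or higher in the E2 libraries other than C9 and at most 5.21 in the vehicle libraries.

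Across the 24 libraries the 9 genes followed each other, with Cd2 the least alike. Log2 CPM of Cd4 correlated with the mean of the other 8 genes at Pearson r = 0.976 and that of Cd2 at r = 0.752. Without E2 C9 these were 0.959 and 0.633, and the other 7 genes lay between 0.841 and 0.945. Among 19524 other genes with a mean of at least 1 CPM, those most like the 9 genes included Grap2 (r = 0.978), Trbc2 (0.977), Tbc1d10c (0.967), Trbc1 (0.966), Themis (0.959), Bcl11b (0.958) and Rasal3 (0.947). Themis reached this minimum only through E2 C9, since its mean over the other 23 libraries was 0.573 CPM. Without E2 C9, Grap2 (0.961) and Trbc2 (0.960) still led, Trac (0.910) entered the first 8, Rasal3 left them and Themis was no longer ranked. These values describe libraries that share 4 treatments, and no test was made of them.

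Mouse numbers fall into 2 series, C2 to C20 and C24 to C39, and no source states whether these are batches. With E4 against vehicle, 0 of 9 genes were called lower in the first series, where 1.7% of all genes were, and the median log2 fold change was -1.94. The second series holds 2 vehicle libraries, OVX C24 and OVX C25, in which the 9 genes summed to 31.7 and 13.8 CPM. There 0 were called and the median was -1.70. Calls say little there, since 0.00784% of all genes (2 of 25498) were called lower. With E4 against E2, 6 were called in the first series, which holds E2 C9, where 3.42% of all genes were, with a median of -4.19. In the second series 0 were called, as were 0% of all genes, and the median was 0.07. With E2 against vehicle the median was 2.22 in the first series, with 0 called (0.677% of all genes were called higher), and -1.66 in the second, with 0 called (0.0667% were called lower). The lower values with E4 as compared with vehicle thus had the same direction in both series, with only 2 vehicle libraries in the second. Those as compared with E2 did not for 5 of the 9 genes.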

How the data were processed

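Carotid artery RNA had been made into stranded mRNA libraries and sequenced in pairs. According to the submitters' processing notes, bcl2fastq 2.17, Trim Galore, Bowtie2 and featureCounts were used with the build mm10 (GRCm38). Trim Galore removed adapters and read ends of low quality, per the study's methods. The target of the alignment and the strand setting of the counting are not given in the sources used here. Bowtie2 does not split reads across introns, so that reads over exon junctions can be lost if the genome was the target. For every library the authors deposited a table of estimated counts per gene that had not been normalized, in which 8.87% to 9.8% of the values carried decimals. These were rounded to whole numbers. Names, exon lengths and coordinates came from GENCODE M21.

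Counts of the 24 libraries entered 1 fit in edgeR 4.0.16 (R 4.3.3), after removal of low counts by filterByExpr and scaling by TMM, and were tested by quasi-likelihood. P-values were adjusted by the Benjamini-Hochberg method over 25033 genes, or over 25213 without E2 C9. Standard errors and 95% intervals were derived from the F statistic. CPM are counts relative to library totals scaled by TMM. The members and lists were chosen with earlier results of these data known. Named were all 9 genes, from each list the called genes (at most 4, the most abundant first) or else the most abundant one, and the 8 genes most like the 9 by log2 CPM with a prior count of 2. Ms4a1 and the signalling and constant genes named beyond this rule were named after their values were seen. Some genes that this rule takes are not reported here. Alternatives were DESeq2 1.42.0, other scalings, no filter, other sets of libraries, number series and marker lists as covariates. The procedure was tested on simulated data. Of the 138 genes of all lists 135 matched by symbol, and 3 by an older symbol. Figures were drawn with matplotlib 3.10.9. The 95% intervals include the spread between libraries.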

Additional observations from a re-analysis of the deposited data

Results flagged for a closer look

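In each of the 9 genes, 1 E2 library lay far from the other 5, by a gap that was a larger part of the group's range than Dixon's 95% limit for 6 values. This library was E2 C9 every time. Its values were 17.8 CPM for Cd3d, 18.4 for Cd3e and 18 for Cd3g. They were 61.3 CPM for Cd4, 128 for Cd8a, 41.8 for Cd8b1 and 61 for Lck. Cd5 was at 6.23 CPM, and Cd2 at 8.38 CPM, with the smallest share of the range (0.692) against 0.853 to 0.945 for the other 8 genes. For normally distributed values chance gives such a gap in about 1 of 20 groups, or 1.8 of the 36 groups examined, and 9 were found. CPM were used without a log, and whether they are normally distributed was not tested. The 9 genes were measured in the same library and so are not independent. In vehicle, E4 and TAM libraries 0 of the 27 groups had such a gap.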

How the results depend on the processing

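No paired analysis was possible because the groups share no replicate number. Rag1 and Dntt as a covariate and E2 C9 left out together with OVX C5 and TAM C35 were chosen after seeing the data. Of 1347 log2 fold changes of the 9 genes under alternatives, in the comparisons with vehicle and of E4 with E2, 1197 kept their direction and their side of the thresholds, 25 came to pass them, 74 ceased to and 51 changed sign. The cause was not tested unless a setting's own construction shows it.

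For E4 against vehicle (1 called), DESeq2 called 2, with 3 genes given no adjusted p (1.85% of all genes were lower), and a fit of only the 2 groups called 8 (1.55%). Each number series alone, OVX C5 and TAM C35 left out, the B cell list and Rag1 with Dntt gave 0, where 1.70%, 0.00784%, 1.35%, 0.0799% and 0.707% of all genes, respectively, were called lower, against 1.69% in the fit reported. Without E2 C9, OVX C5 and TAM C35 the count was 8 (1.52%). Leaving out 1 library gave 0 to 9, with 1.08% to 2.05% of all genes lower: 9 without E2 C9, and 0 without OVX C3, OVX C5, E4 C19, E4 C20 or E4 C38. For E4 against E2 (9 called), DESeq2 gave 6 (2.28% of all genes were lower), the number series as a covariate 5 (2.10%), the second series 0, the lymph node list 8 (2.19%), and the B cell list, Rag1 with Dntt and the 3 libraries left out gave 1 each. Of all genes, 2.25% were called lower in the fit reported, 0 in the second series, 0.867% with the B cell list, 0.987% with Rag1 and Dntt and 1.70% without the 3 libraries. Leaving out 1 library gave 1 to 9, with 1.48% to 2.73% of all genes lower: 1 without E2 C9 (1.48%) and 5 without E4 C19 (1.64%) or E4 C20 (1.72%). For TAM against E2 (1 called), each series gave 0 (1.64% and 0.294% of all genes were lower), and leaving out 1 library 0 to 3 (1.02% to 1.67%). The B cell list gave 1 (Cd2) for E2 against vehicle (1.08% of all genes were higher).

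Signs turned as follows, on the log2 scale. In the other 2 comparisons only medians were followed: TAM against E2 went from -2.01 to 0.21 without E2 C9 and to 0.43 in the second series, and TAM against E4 from 1.14 to -0.33 with Rag1 and Dntt. For E2 against vehicle without E2 C9, values were -0.52 (Cd3d), -1.07 (Cd3e), -0.71 (Cd3g), -0.56 (Cd4), -0.91 (Cd8a), -1.15 (Cd8b1), -0.71 (Lck) and -0.93 (Cd5), the lowest with any 1 library left out. The highest, without OVX C3, were 1.90, 1.59, 1.56, 2.51, 2.89, 2.54, 2.08 and 0.82. With E2 C9, OVX C5 and TAM C35 left out together, these 8 were -0.55, -1.11, -0.75, -0.65, -0.99, -1.24, -0.77 and -0.90. In the second series alone they were -0.92, -1.98, -1.53, -1.66, -2.56, -2.26, -1.43 and -1.74. With the B cell list, E4 against vehicle gave 0.75 (Cd3d), 0.20 (Cd3e), 0.061 (Cd2), 0.47 (Cd4), 0.21 (Cd8a), 0.39 (Lck) and 0.0054 (Cd5). For TAM against vehicle it gave 1.17 (Cd3d), 0.59 (Cd3e), 0.50 (Cd3g), 0.25 (Cd2), 0.87 (Cd4), 1.17 (Cd8a), 0.51 (Cd8b1), 0.83 (Lck) and 0.46 (Cd5). With Rag1 and Dntt, E4 against vehicle gave 0.55 (Cd4), 0.29 (Cd8a) and 0.30 (Lck). In the first series, TAM against vehicle gave 0.12 (Cd4), 0.28 (Cd8a) and 0.0058 (Lck). In the second, E4 against E2 gave 0.081 (Cd3e), 0.11 (Cd3g), 0.20 (Cd4), 0.11 (Cd8a) and 0.068 (Lck). Depth limits the E4 values, which rest on as few as 3 counts.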
